A study of Mus musculus with 3 samples.

Results

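The genes described here are the 63 T cell receptor beta, gamma and delta genes of the deposited table, out of 48709 genes in all. They were chosen by annotation alone, as rows whose biotype is a T cell receptor V, D, J or C gene and whose symbol starts with Trb, Trg, Tcrg, Trd or Tcrd. The beta locus (Trb, chromosome 6) gave 39 of them, with 22 V, 2 D, 13 J and 2 C genes. The gamma locus (Trg, chromosome 13) gave 14, with 6 V, 4 J and 4 C genes, and the delta locus (Trd, chromosome 14) gave 10, with 5 V, 2 D, 2 J and 1 C gene. The 160 alpha genes of the table, 15 pseudogene rows of the 3 loci and 3 V rows with other symbols are no members and serve only for comparison.

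RNA was sequenced from 3 libraries in 1 group, labelled WT, of cells sorted from digested mouse lung and labelled as smooth muscle. All mice were transgenic for a tamoxifen-dependent Cre recombinase (creERT2) under smooth muscle actin and for the red fluorescent protein tdTomato. Tamoxifen was injected into the peritoneum at 75 mg/kg daily for 10 days at an age of 8 weeks, and cells were sorted 2 months later. The labels do not say whether the libraries came from separate mice, so the spread between them may be technical, and with 1 group no contrast between conditions exists.

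A T cell receptor is a pair of chains, alpha with beta on most T cells and gamma with delta on a smaller lineage found in the lung and other barrier tissues. Each chain gene is put together in developing lymphocytes by V(D)J recombination, in which the RAG1 and RAG2 proteins join a V segment, in beta and delta a D segment, and a J segment, and the joined exon is then spliced to a constant (C) region. Reads on V, J and C genes of these loci can therefore come from rearranged transcripts, but in total RNA also from unspliced ones. Smooth muscle cells do not rearrange these loci.

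The labelled cell type was checked against marker lists. Library totals were 18896263, 18355813 and 16877297 counts for libraries 1, 2 and 3, and a count of 0 allows up to 3 counts, which equalled 0.159, 0.163 and 0.178 CPM (counts per 1000000 library counts). The 8 smooth muscle markers summed to 85.5, 106 and 79.2 CPM, with the actin gene Acta2 at 211, 313 and 191 counts and Cnn1, calponin, at 0, 7 and 5. The 15 T cell markers summed to 1847, 1866 and 1479 CPM, the 3 coreceptor genes Cd4, Cd8a and Cd8b1 to 324, 333 and 244 CPM, and the 4 B cell markers to 341, 507 and 678 CPM. The median marker had 104 CPM in the T cell list, 116 in the B cell list and 12.7 in the smooth muscle list, so the markers of the labelled cell type were lower than those of lymphocytes. Fewer T cells and less receptor RNA per T cell cannot be told apart in these bulk libraries.

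The segments that V(D)J recombination joins are short, and their sequences show what a read on them can and cannot tell apart. The D segments with counts were 12 to 16 bases long and are shown because so few bases carry their identity. They are printed 5′ to 3′ on the coding strand from GENCODE M21 transcripts (GRCm38); Trbd1 lies at chr6:41533201-41533212, Trbd2 at chr6:41542163-41542176 and Trdd2 at chr14:54122226-54122241.
Trbd1: gggacagggggc
Trbd2: gggactgggggggc
Trdd2: atcggagggatacgag

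J segments end the variable exon and usually encode the sequence phenylalanine, glycine, any residue, glycine. This motif was searched on the coding strand, in all 3 frames, as a codon TTT or TTC, a codon GGN, any codon, and a codon GGN; a form with alanine, GCN, at the second place was added after the sequences had been seen. The glycine form was present in 13 of the 19 J members and in 42 of the 51 alpha J genes of the table. With the alanine form, which Trbj1-6 and the 4 gamma J segments hold, it was 18 of 19 and 43 of 51. Of 9 alpha J pseudogenes 1 held either form. The sequences below are the most abundant J of each beta cluster, a delta and a gamma J, and the beta J rows without the motif, of which Trbj2-6 is annotated as a pseudogene and is no member. Capitals mark the motif.
Trbj1-2: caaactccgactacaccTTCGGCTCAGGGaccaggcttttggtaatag
Trbj2-1: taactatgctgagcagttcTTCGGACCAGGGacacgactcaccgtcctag
Trdj1: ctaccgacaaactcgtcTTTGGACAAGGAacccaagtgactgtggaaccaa
Trgj4: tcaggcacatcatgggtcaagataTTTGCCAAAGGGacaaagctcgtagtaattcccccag
Trbj1-7: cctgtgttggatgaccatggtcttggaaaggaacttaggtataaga
Trbj2-6: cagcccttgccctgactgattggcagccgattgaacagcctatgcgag

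The constant genes of a locus are near-copies, which bears on how reads could be assigned between them. The coding sequences of Trbc1 and Trbc2 were identical over their first 259 bases and 95.6% identical over 518 bases, with 23 differing bases. The 90-base stretch with the most differences, coding bases 400 to 489, is shown with the bases of Trbc2 that differ from Trbc1 in capitals; it holds 14 of the 23.
Trbc1: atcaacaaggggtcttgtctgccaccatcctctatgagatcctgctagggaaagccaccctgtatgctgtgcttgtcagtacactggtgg
Trbc2: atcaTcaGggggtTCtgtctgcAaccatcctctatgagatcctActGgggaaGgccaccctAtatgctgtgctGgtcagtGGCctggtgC

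In the gamma locus, Tcrg-C1 was 97.4% identical to Tcrg-C2 and 96.8% to Tcrg-C3 over the aligned coding bases, but 78.7% identical to Tcrg-C4. The first 90 coding bases are shown for 3 of the 4 genes, with differences from Tcrg-C1 in capitals; Tcrg-C2 differs there at 1 base and Tcrg-C4 at 12.
Tcrg-C1: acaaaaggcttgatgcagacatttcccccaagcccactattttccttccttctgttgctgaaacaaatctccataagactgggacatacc
Tcrg-C2: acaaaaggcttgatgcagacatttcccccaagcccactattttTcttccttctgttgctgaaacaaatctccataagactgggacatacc
Tcrg-C4: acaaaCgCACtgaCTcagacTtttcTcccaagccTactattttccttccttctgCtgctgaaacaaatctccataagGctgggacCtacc

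Counts were found on most receptor genes. Of the 63 members, 60 had a count in some library, beside 33333 of all 48709 genes in the table. At least 3 counts in every library were found for 44 members (69.8%), against 40.0% of all genes in the table. By class these were 25 of 33 V, 1 of 4 D, 11 of 19 J and 7 of 7 C genes. By locus they were 32 of 39 beta, 6 of 14 gamma and 6 of 10 delta genes. The 3 members without a count were Trdd1, a D segment of delta, and the gamma J segments Trgj1 and Trgj3, for which at most 0.178 CPM is allowed in the shallowest library.

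The beta locus carried most of the receptor counts. Its members summed to 283, 303 and 269 CPM in libraries 1, 2 and 3, or 284.9 ± 17.2 CPM (SD, n = 3), which was 86.6% ± 3.09 of the counts on all members. The gamma genes summed to 28.8, 19.9 and 14.6 CPM (21.1 ± 7.16) and the delta genes to 28.6, 17.6 and 23.0 CPM (23.1 ± 5.52). Beta was the highest locus in all 3 libraries, whereas gamma and delta differed by less than their spread. For comparison, the alpha genes summed to 252, 242 and 186 CPM. Over all members the sum was 340.3, 340.5 and 306 CPM, so relative to its level gamma ranged more widely between libraries than the sum did.

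Among the constant regions, which follow the J segment in spliced receptor transcripts, the beta genes stood far above the others. Trbc1 (chromosome 6, 41538218 to 41539881) had 1788, 2008 and 1697 counts, or 101.5 ± 7.43 CPM. Trbc2 (chromosome 6, 41546730 to 41548352) had 1999, 1848 and 1506 counts, or 98.6 ± 8.48 CPM. Trbc1 was the lower of the pair in library 1 and the higher in libraries 2 and 3, and the log2 ratio of Trbc1 to Trbc2 (CPM + 1) was -0.16, 0.12 and 0.17, a mean of 0.04 ± 0.18 that is smaller than its spread. Per kilobase of exon, the levels were 135.5 CPM for Trbc1 and 142 for Trbc2. Of their 50-base words, 40.5% of those of Trbc1 and 44.0% of those of Trbc2 occur in the other gene, so the division of counts between them is uncertain.

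The 4 gamma constant genes were lower. Tcrg-C1 (chromosome 13, 19214103 to 19217024) had 130, 81 and 67 counts. Tcrg-C2 (19304649 to 19307551, minus strand) had 157, 115 and 68 counts, and Tcrg-C4 (19344558 to 19352756) had 86, 74 and 35. All 3 were highest in library 1 and lowest in library 3. Tcrg-C3 (19260884 to 19263528) had 13, 19 and 6 counts and was highest in library 2. Per kilobase of exon, the levels were 5.51 CPM for Tcrg-C1, 6.78 for Tcrg-C2, 1.07 for Tcrg-C3 and 3.61 for Tcrg-C4. Shared 50-base words made up 34.2% of Tcrg-C1, 25.4% of Tcrg-C2 and 39.5% of Tcrg-C3, so counts could move among these 3, whereas Tcrg-C4 shared none.

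Trdc, the single delta constant gene (chromosome 14, 54142851 to 54148868), had 332, 257 and 281 counts, or 16.1 ± 1.85 CPM. Its annotated exons span 3865 bases, against 749 for Trbc1, so its level per kilobase of exon was only 4.16 CPM. It overlaps the antisense gene Gm43434 (13, 7 and 24 counts) and the delta segment Trdv5 on the other strand. The libraries were stranded, but the sources used here do not give the strand setting of the counting, so reads of such pairs may not be separated.

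Ratios within a library do not depend on its depth except through the pseudocount. The summed beta constant genes exceeded the summed gamma constant genes by a log2 ratio of 3.23, 3.66 and 4.06, a mean of 3.65 ± 0.41 or 12.6-fold. The ratio was positive in all 3 libraries and lowest in library 1. With each gene's level divided by its exon length and then summed, beta exceeded Trdc by a log2 ratio of 5.76 ± 0.19 and gamma exceeded Trdc by 1.76 ± 0.47. In plain CPM the gamma to Trdc ratio was -0.09 ± 0.47. Divided by the summed exon length of its 4 genes, the gamma level was 5.88, 4.53 and 3.003 CPM per kilobase, against 4.55, 3.62 and 4.31 for Trdc. The order of gamma and delta thus depends on how length is treated and, in the last form, on the library. As a sum of levels per kilobase, beta exceeded the alpha constant gene Trac by 1.63 ± 0.16 on the log2 scale. No ratio carries a test, because with 3 libraries the smallest p of a two-sided exact sign-flip test is 0.25.

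**Figure D1:**
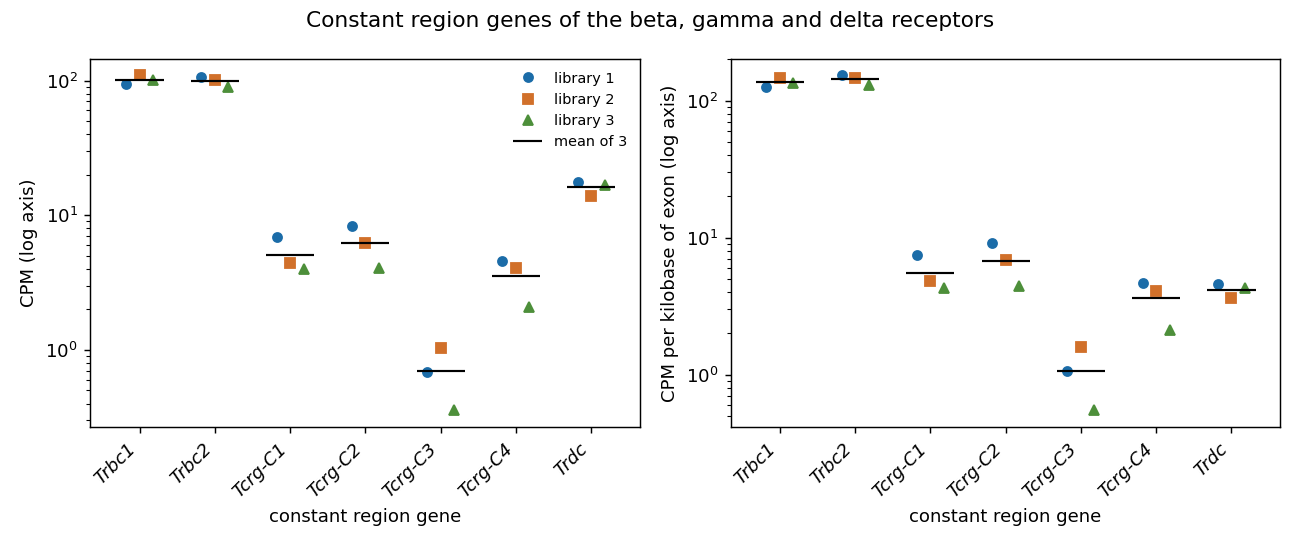
Constant region genes of the 3 loci in CPM (left) and CPM per kilobase of exon (right), both on log axes; symbols are the 3 libraries and the bar is their mean. Trbc1 at 101.5 CPM and Trbc2 at 98.6 CPM lie above the other 5 genes in every library, and Trdc falls to the level of the gamma genes once length is divided out, at 4.16 CPM per kilobase.

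The share of a locus's counts on its constant genes was similar in the 3 loci, at 70.3% ± 0.83 for beta, 73.8% ± 4.66 for gamma and 71.1% ± 9.17 for delta (SD, n = 3). For the alpha genes, which here include the V genes named for both alpha and delta, it was 37.0% ± 1.59. These shares are not corrected for exon length. Per kilobase of summed exons, C and V genes had 138.9 and 8.46 CPM in beta, 4.47 and 2.29 in gamma, and 4.16 and 2.98 in delta. The loci were thus alike in raw shares only. In beta the V segments took 25.5% ± 1.59, J 3.83% ± 1.0003 and D 0.37% ± 0.21 of counts. In delta the V share was 34.0%, 18.6% and 19.8% in libraries 1, 2 and 3, and the 95% Wilson interval of library 1, 30.1% to 38.1%, lies above the others, which cover counting error only. Gamma J segments took 0.33% ± 0.42 of the gamma counts, against 3.83% for beta J.

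Counts on the beta V segments, which encode most of the variable part of the chain, were spread broadly and unequally. Trbv3 (41048290 to 41048828) was the highest, with 174, 192 and 127 counts or 9.06 ± 1.47 CPM. Trbv16 (41151740 to 41152230) followed with 140, 160 and 105 counts or 7.45 ± 1.25 CPM. Trbv3 was the highest in every library and Trbv16 the next in libraries 1 and 2, while in library 3 the next was Trbv13-2 (41121396 to 41121832), with 86, 144 and 123 counts or 6.56 ± 1.76 CPM over the libraries. Trbv15 (41141188 to 41141658) had 85, 110 and 104 counts or 5.55 ± 0.92 CPM. Trbv13-3 (41130147 to 41130585) had 125, 85 and 59 counts or 4.91 ± 1.58 CPM, with library 1 the highest. Within libraries, Trbv3 exceeded Trbv16 in all 3. Trbv13-2 also exceeded Trbv15 in all 3, but in library 1 only by 86 to 85 counts. Trbv16 and Trbv13-2, and Trbv15 and Trbv13-3, changed places between libraries. Per kilobase of exon, the highest V member reached 19.9 CPM and the median V member 6.69 CPM.

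At the other end, Trbv30 (41281376 to 41281990) had 0, 8 and 0 counts, and 4 of the 22 V members had a mean below 1 CPM. Trbv4 had 0, 15 and 9 counts; it and Trbv5 overlap the noncoding gene 5830405F06Rik, so their counts are uncertain. Trbv31 (41557691 to 41558452) is the only V segment annotated downstream of the constant genes, on the minus strand, 24.5 kb from Trbd1, and is joined by inversion. It had 41, 86 and 27 counts, or 2.82 ± 1.64 CPM, highest in library 2 and close to the median beta V level of 2.89 CPM. Across the 22 segments, mean CPM and distance from Trbd1 in either direction had a Spearman rho of 0.29, a description over segments that share libraries.

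**Figure D2:**
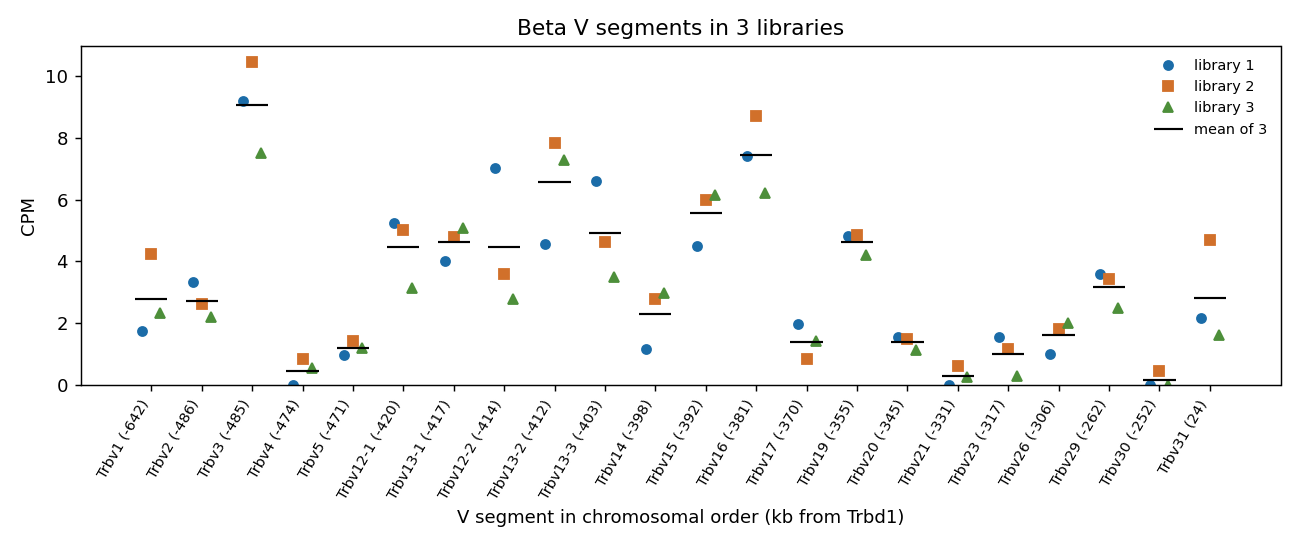
Level of each beta V segment (CPM, linear axis) in chromosomal order, with its distance from Trbd1 in kb in parentheses; symbols are the 3 libraries and the bar is their mean. Trbv3 at 9.06 CPM and Trbv16 at 7.45 CPM stand highest, and Trbv30 lies at or near 0.

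The 3 libraries had similar V profiles. The 5 highest segments of each library took 49.05%, 46.3% and 50.2% of its beta V counts, and the 3 highest 32.8% ± 0.11. The inverse Simpson index, the number of equally used segments that would give the same concentration, was 13.6, 14.5 and 13.9 of 22. Pearson's r of log2(CPM + 1) between pairs of libraries was 0.87, 0.85 and 0.93 over the 22 segments, which share their annotation and length between libraries. In the same loci, the 13 beta V pseudogene rows had a median of 0 CPM in every library and 10 of them had no count, whereas the V members had a median of 2.75, 3.51 and 2.40 CPM. The exception was Trbv24, annotated as a pseudogene, with 38, 10 and 8 counts.

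The beta D and J segments were at low counts. Trbd1 had 7, 7 and 19 counts and Trbd2 had 19, 0 and 4. The first D was highest in library 3 and the second in library 1. Trbj1-2 (41534001 to 41534048), in the first J cluster, had 24, 15 and 53 counts, and Trbj2-1 (41542754 to 41542803), in the second, had 44, 16 and 13. Library 3 was thus high in Trbj1-2 and library 1 in Trbj2-1. The next J segments were Trbj1-1 with 18, 21 and 21 counts, Trbj1-4 with 11, 20 and 27, and Trbj1-5 with 19, 29 and 10. The second cluster took 47.6%, 41.7% and 32.4% of the beta J counts, a mean of 40.6% ± 7.62. The 95% Wilson intervals of library 1 (40.1% to 55.2%) and library 3 (26.7% to 38.8%) do not overlap, and they cover counting error only. Trbj2 counts were 78, 80 and 73, whereas Trbj1 counts were 86, 112 and 152.

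The 2 J rows without the motif differed in their counts. Trbj1-7 had 0, 0 and 5 counts. The pseudogene Trbj2-6 (41543598 to 41543645), which lies between Trbj2-5 and Trbj2-7, had 23, 16 and 16 counts or 1.01 ± 0.18 CPM. Its mean lay above that of 8 of the 13 beta J members. The libraries were made from total RNA, which holds unspliced transcripts, and how much of these counts comes from rearranged transcripts was not tested.

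**Figure D3:**
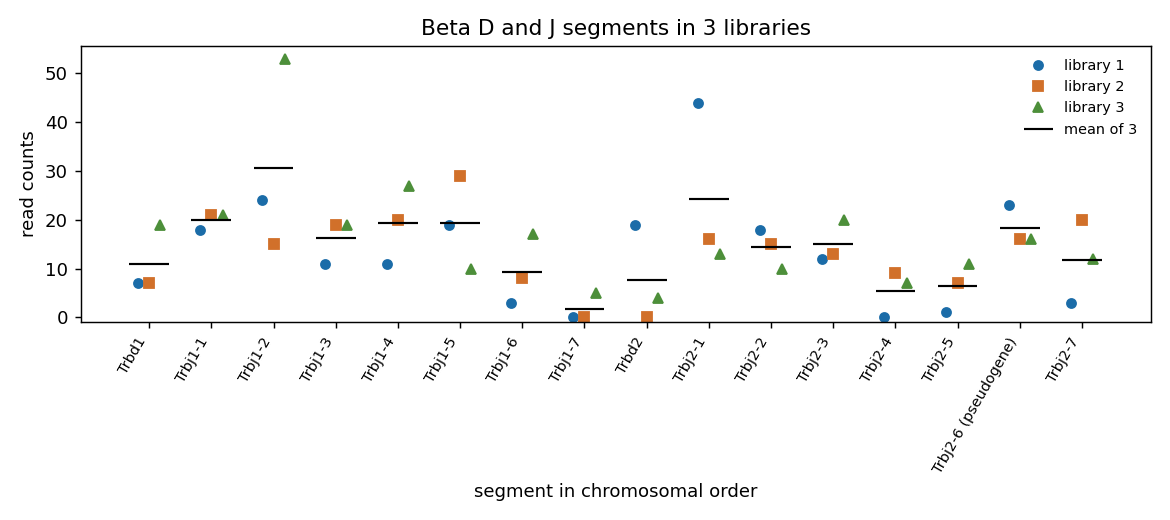
Read counts of the beta D and J segments in chromosomal order, with the pseudogene Trbj2-6; symbols are the 3 libraries and the bar is their mean. Trbj1-2 is high in library 3 with 53 counts, Trbj2-1 in library 1 with 44, and Trbj2-6 lies among the members.

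The gamma V members were dominated by Trgv2 (chromosome 13, 19336573 to 19337167, minus strand), which lies near Trgj2 and Tcrg-C2 on the same strand. It had 121, 52 and 38 counts, or 3.83 ± 2.25 CPM, and took 77.1%, 68.4% and 55.1% of the counts on gamma V members. These shares leave out Gm16602, a gamma V gene outside the symbol rule with 20, 32 and 5 counts, and would be lower with it. Shared 50-base words made up 7.0% of Trgv2 and 19.4% of Tcrg-V3, in both cases mostly shared with Gm16602, so counts could move among these genes. Library 1 was the highest for Trgv2, as for Tcrg-C2. Tcrg-V4 (19184974 to 19185506) had 11, 14 and 10 counts. Tcrg-V6 (19190356 to 19190929) had 24, 0 and 1 counts, so that nearly all of its counts came from library 1. Tcrg-V3 had 1, 6 and 7 counts, Tcrg-V5 0, 4 and 5, and Tcrg-V7 0, 0 and 8. Mouse gamma V segments carry different numbers in different naming systems, and the names here are those of the table. Tcrg-V4, Tcrg-V5, Tcrg-V6 and Tcrg-V7 overlap the antisense gene Gm43385, which had 0, 0 and 3 counts.

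The gamma J segments had almost no counts, with 1, 0 and 0 on Trgj2, 0, 0 and 2 on Trgj4, and none on Trgj1 and Trgj3. The inverse Simpson index of the gamma V counts was 1.61, 1.96 and 2.83 of 6, on 157, 76 and 69 counts.

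In the delta locus, Trdv2-2 (chromosome 14, 53960944 to 53961602) had 88, 10 and 7 counts, Trdv4 (54074905 to 54075515) 20, 28 and 47, and Trdv1 (53881612 to 53882217) 37, 17 and 13. Trdv5 (54148662 to 54149294, minus strand) had 39, 5 and 8 counts and Trdv2-1 had 0, 0 and 2. Library 1 was the highest for Trdv2-2, Trdv1 and Trdv5, and library 3 for Trdv4. Trdv2-2 shares 52.6% of its 50-base words with Trdv2-1 and overlaps the antisense gene Gm43647, whose counts were 13, 2 and 6 and also highest in library 1. Trdd2 had 11, 0 and 11 counts, Trdj1 had 14, 6 and 17 and Trdj2 had 0, 0 and 2. Trdv1 is the only delta member that overlaps no other row of the table.

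**Figure D4:**
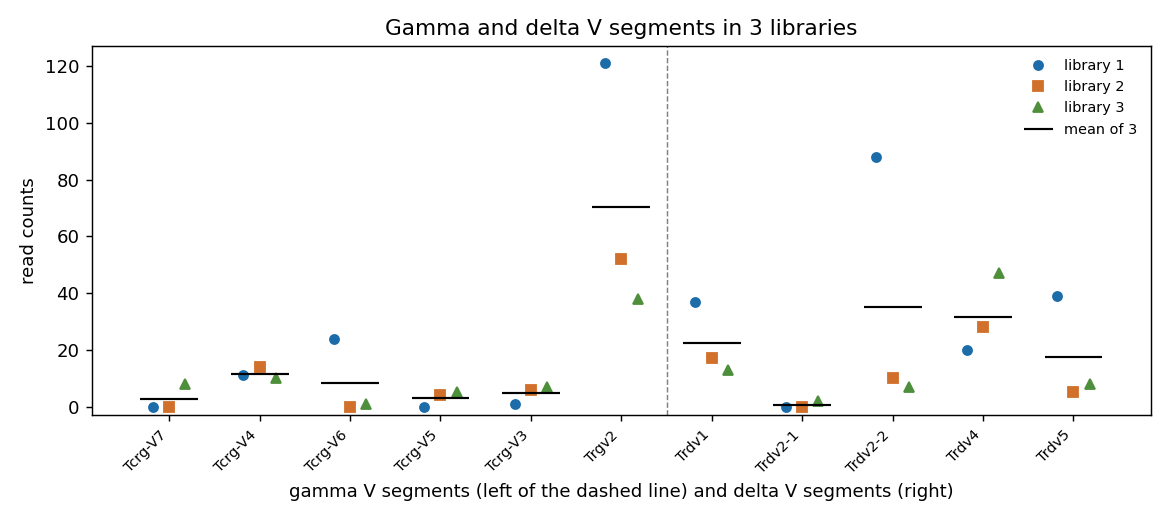
Read counts of the gamma V segments (left of the dashed line) and delta V segments (right) in chromosomal order within each locus; symbols are the 3 libraries and the bar is their mean. Trgv2 with 121 counts and Trdv2-2 with 88 stand out in library 1, while Trdv4 is highest in library 3 with 47.

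Variation between libraries beyond counting error was tested gene by gene with chi-square homogeneity tests on TMM-scaled library sizes. At a Benjamini-Hochberg adjusted p below 0.05, 37 of the 52 members with at least 10 counts varied (71.2%), close to the 70.0% of all 23317 genes tested. Of the V, D and J members tested, 31 of 45 varied (68.9%), beside 65.2% of genes in the same range of counts. The members therefore varied about as often as other genes, and the count is not a result about them. Without library 1, 15 of 50 members tested varied, beside 38.2% of all genes tested. Without library 2 it was 27 of 48 beside 53.4%, and without library 3 it was 23 of 49 beside 56.8%. The members with a mean of at least 1 CPM that varied with the largest ratio of the highest to the lowest library were Trdv2-2 (11.2, adjusted p 9.2e-26), Trbj1-2 (3.84, 9.9e-06), Trbj2-1 (3.02, 1.8e-05), Trbv31 (2.93, 4.8e-08) and Trgv2 (2.84, 4.0e-12). Trbc1 varied with an adjusted p of 3.2e-06 although its highest library had only 1.16 times the CPM of its lowest; the test has more power at high counts.

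The library in which varied members were highest is given by locus, with no test of a difference between loci. Of the varied gamma and delta members, 9 were highest in library 1, 0 in library 2 and 2 in library 3. Of the varied beta members, 10 were highest in library 1, 11 in library 2 and 5 in library 3. Of all varied genes, 34.7% were highest in library 1, 27.8% in library 2 and 37.5% in library 3. Genes of gamma delta and type 17 lymphocytes were examined beside this. The interleukin 23 receptor gene Il23r had 96, 22 and 11 counts, and Il17re had 53, 13 and 10. Sox13, a transcription factor of gamma delta T cells, had 326, 160 and 202 counts. Other genes of the list did not follow this order, since Ccr6 had 115, 110 and 246 counts and Il17a 8, 0 and 20. The 12 genes of the list, of which 10 had at least 3 counts in every library, summed to 139, 114 and 165 CPM, highest in library 3. Whether their cells account for the higher gamma and delta counts of library 1 was not tested.

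The chains that carry the receptor's signal were found beside it. The CD3 genes had 48.4 ± 5.66 CPM for Cd3d, 133 ± 30.04 for Cd3e, 133 ± 35.2 for Cd3g and 109 ± 6.12 for Cd247, which encodes the zeta chain. Trac had 1784, 1563 and 1200 counts, or 83.6 ± 11.7 CPM, the coreceptor Cd4 128 ± 7.94 CPM and Cd8a 80.2 ± 20.9 CPM. All 7 of these genes were lowest in library 3. All 15 T cell genes had at least 3 counts in every library. The innate lymphocyte list of 8 genes summed to 221, 235 and 356 CPM, highest in library 3, where the T cell sum was lowest.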

How the data were processed

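A stranded kit for total RNA was used for the libraries, per the labels' protocols. The authors' deposited table gives raw read counts per gene for 48709 mouse genes, and columns named as controls 1 to 3 were assigned to WT 1 to 3 by number. FastQC, Trimmomatic 0.38, STAR 2.6.1d, featureCounts 1.6.3 of Subread and DESeq2 1.18.1 are listed in the submitters' processing notes, whose builds hg38 and GRCh38 are human; the sources used here give no strand, overlap or multimapping settings. All 63 members had the coordinates of GENCODE M21 (GRCm38). Reads that fit several genes or overlapping genes could be split, dropped or counted at each.

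From the counts, CPM over library totals, shares, log2 ratios with a pseudocount of 1 CPM, and Wilson intervals at 95% were computed in Python 3.11.15; exon lengths, shared 50-base words and sequences came from GENCODE M21. Per-gene chi-square tests used TMM factors of edgeR 4.0.16 (R 4.3.3), genes with at least 10 counts and Benjamini-Hochberg adjustment. They were tried on simulated counts that held counting error only, apart from changes added to a single library for some genes. That simulation does not cover the wider variation between the real libraries. DESeq2 1.42.0 size factors, other filters, scalings, pseudocounts, lengths and left-out libraries were alternatives. The rule for members uses annotation only, but it and the lists were set with earlier results of these data known. Named genes are all C and D members, the 5 highest V and J of each locus, its lowest V, the 5 varied ones with the largest ratio between libraries, and CD3, coreceptor and recombination genes; others (Trbv4, Trbv5, Trbv24, Trbj1-7, Trbj2-6, overlapping rows, single genes of the lists) were chosen after their values were seen. The value of 1 gene of the lists is not reported here, although list sums and counts include it.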

Additional observations from a re-analysis of the deposited data

How the results depend on the processing

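Of 125 alternative values for 20 results, 105 kept the value within the spread between libraries or the count within 1.5 times and 20 moved. The sign turned in 6 of the 125 values, moved or not, and only for ratios whose mean was smaller than its spread. Trbc1 to Trbc2, 0.04, became -0.07 per kilobase with or without a pseudocount and -0.02 without library 3. Gamma C to Trdc, -0.09, became 0.18 without library 3 and positive per kilobase. With nuclear protein-coding, T cell receptor and immunoglobulin genes alone as the denominator, the locus levels became 475.7 CPM for beta, 35.6 for gamma and 38.6 for delta. Without members that overlap another gene, the delta level fell to 1.22 CPM, since only Trdv1 was left, and the gamma share on constant genes became 79.3%. Per kilobase of exon, the log2 ratios were 5.76 for beta C to Trdc, 1.76 for gamma C to Trdc, 1.63 for beta C to Trac and -4.13 for Trdc to Trac. Per kilobase with no pseudocount, a setting chosen after seeing the data, they were 6.07, 1.98, 1.65 and -4.42, and beta to gamma C was 4.09. The exponential of the Shannon entropy gave 16.3 effective V segments for beta, 2.79 for gamma and 3.34 for delta. The median of the beta V members minus that of their pseudogene rows was 6.95 CPM per kilobase. Leaving out each library in turn gave 15 to 27 varied members, of which 14 without library 1, 26 without library 2 and 23 without library 3 were also among the 37; the share of all genes tested that varied was then 38.2%, 53.4% and 56.8%. Adding Gm16602 to the gamma V segments, also chosen after seeing the data, gave 22.1 CPM for the locus and an inverse Simpson index of 2.71. No paired analysis was possible because the libraries form 1 group. Depth limits the J and D segments, all of which but Trbj1-2 and Trbj2-1 had under 30 counts in each library.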

Other observations

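The genes of V(D)J recombination that act mainly in developing lymphocytes were low. Rag1 had 39, 41 and 26 counts in libraries 1, 2 and 3 and Dntt, which adds bases at the junctions, had 47, 30 and 12. Rag2, the partner of Rag1, had 0, 0 and 5 counts, so the pair was unequal in every library. The 10 genes of the list summed to 115, 128 and 140 CPM, mostly on DNA repair genes that other cells also express, such as Prkdc at 56.1 ± 8.19 CPM and Xrcc6 at 17.7 ± 2.58 CPM (SD, n = 3).

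Segments close to the members but outside the symbol rule also had counts. Gm16602, a gamma V gene that a table of current names calls Tcrg-V1 (chromosome 13, 19339989 to 19340454), had 20, 32 and 5 counts, highest in library 2, whereas Trgv2 was highest in library 1. The 10 V genes named for both alpha and delta all had at least 3 counts in every library, among them Trav14d-3-dv8 with 60, 34 and 16 counts and Trav6-7-dv9 with 29, 30 and 27. Which chain these reads belong to cannot be read from gene counts. The V row C920008G01Rik had 24, 26 and 10 counts.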
